A study of Mus musculus with 8 samples.

Results

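The genes described here encode the proteins that make, bind, shorten and read the poly(A) tail of an mRNA, together with the factors of Pumilio repression, decapping and microRNA (miRNA) silencing. They are 37 genes, taken by a list of gene symbols that leaves out the CCR4-NOT subunits. Of these, 36 had a probe set, the unit of measurement on the array, assigned to that gene alone, and are among the 17097 genes on the array with such a probe set. Cstf2 had only 3 probe sets shared with Nox1 and is given no value. Among the 36, 29 had a mean over all arrays above 4.23 on the log2 scale, the median of all probe set means, and entered the test with 11345 genes in all. The 7 below it were Papolg, Cstf2t, Cstf3, Cpsf6, Cpsf7, Clp1 and Btg1. Of the 29, Pan3 and Cpsf2 lay above 4.23 only with the CPEB4 arrays counted, so the 29 are not a neutral sample of the list.

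The mRNAs of these genes were measured in RNA immunoprecipitates (RIP) of mouse striatum, made with antibodies against CPEB4 or CPEB1, with rabbit IgG as the control for unspecific binding, and in the input lysate. Each fraction had 1 array from a pool of HD mice and 1 from a pool of WT mice, 8 arrays in all. The animals were males of 7 to 8 months, 4 mice are named in the design text, which does not make clear whether per genotype or in all, and their striata were pooled by genotype. What HD stands for, the strain and the allele are not stated in the labels. All fractions were crosslinked with formaldehyde, and 8 µg of cDNA amplified over 27 cycles went into labelling for each array, so a value is a share of the RNA of a fraction and not an amount per cell.

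CPEB proteins bind cytoplasmic polyadenylation elements in the 3′ untranslated region of mRNAs and, with their partners, lengthen or shorten the poly(A) tail in the cytoplasm. The tail is first made in the nucleus: CPSF and CstF recognise the polyadenylation signal and the sequence after the cleavage site, cleavage factors I and II assist, and poly(A) polymerase adds the tail. In the cytoplasm PABPC proteins coat the tail, deadenylases shorten it, and decapping exposes the mRNA to decay. Argonaute and TNRC6 proteins couple miRNAs to the same deadenylases. The question here was whether the mRNAs of this machinery themselves came down with CPEB4 or CPEB1.

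Values are log2 summaries made by the authors with RMA and were compared as deposited. Whether all 8 arrays were normalized together is not stated, and their distributions were unequal. Array medians lay between 4.03 and 4.28, and the spread over the 11345 genes ran from an SD of 1.28 (IgG, HD) to 1.79 (CPEB4, WT), and 648 to 1810 genes stood above a value of 8 on the same arrays. Striatal neuron genes were present in the input: Pde10a stood at 11.34 in HD and 12.20 in WT, and Ppp1r1b at 10.30 and 11.07 in HD and WT. Drd1 was at 4.47 and 4.53, close to the filter value. Comparisons used limma across all 11345 genes with fraction and genotype pool in the model, Benjamini-Hochberg adjusted over all genes, and called a gene at an adjusted p under 0.05. The errors are standard errors (SE) of that model, in which n = 2 pools stand in for replicates. The overall difference between the pools is taken out by the model. The p-values therefore rest on how unevenly HD and WT differed across the 4 fractions, and not on the spread between animals. Technical spread and a genotype difference in enrichment cannot be told apart in it.

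With CPEB4, 3 of the 29 tested members were higher than with IgG and 0 were lower, against 264 of 11345 genes higher (2.33%). They were Pabpc1, the main cytoplasmic poly(A) binding protein, Pum2, a Pumilio protein that represses mRNAs through their 3′ ends, and Tnrc6b, a scaffold of miRNA silencing. At an unadjusted p under 0.05, 10 members were higher and 0 lower, where 15.7% of all genes were higher. In 9 members both pools showed at least a 2-fold difference, against 14.3% of all genes, and in 17 both CPEB4 arrays stood above both IgG arrays, against 29.3% of all genes. These counts include Pan3, whose probe set was chosen and tested only because of its CPEB4 arrays. When probe set and filter were taken from the 6 arrays of CPEB1, IgG and input alone, an alternative chosen after seeing the data, 9 of 29 were higher unadjusted, against 13.8% of 11494 genes, and 8 lay beyond 2-fold in both pools, against 12.6%. The median over the 36 measured members was 0.48, and over all 17097 genes it was -0.16. Over 8 measured medium spiny neuron markers the median was 0.61, with 0 of 7 tested called by limma and 2 higher at an unadjusted p under 0.05. Over 3 oligodendrocyte markers it was 0.96, with 0 called by limma and 1 higher at an unadjusted p under 0.05. For the astrocyte, microglia, endothelial, choroid plexus, blood and cortical excitatory neuron markers the medians lay between -0.69 and 0.03. Their part in the members' values was not tested.

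Members that form the 3′ end in the nucleus and members that act on the finished mRNA are given side by side. Of 17 measured nuclear factors the median log2 difference of CPEB4 over IgG was 0.34, with 0 of 11 tested called. Of 19 measured factors of tail binding, deadenylation, repression and decay it was 0.91, with 3 of 18 tested called. The 0.91 is Pabpn1 itself, which acts in the nucleus during tail synthesis and was placed here with the poly(A) binding proteins. The 2 groups are therefore not cleanly nuclear and cytoplasmic. Pabpn1 was also 2.44 above the input with IgG alone. Both medians rest in part on probe sets chosen through the CPEB4 arrays. The 0.91 counts Pan3 at 2.34 and Btg1 at 2.28, which were at -0.10 and -0.43 on the sets chosen by the other arrays. With those sets both genes move from above 0.91 to below it, so that median would be lower. The 0.34 is Cpsf2 itself, at -0.53 on the set so chosen. Of the nuclear factors 11 of 17 passed the filter, against 18 of 19. The difference between these groups was not tested, and the gap in medians is not read as one.

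**Figure D1:**
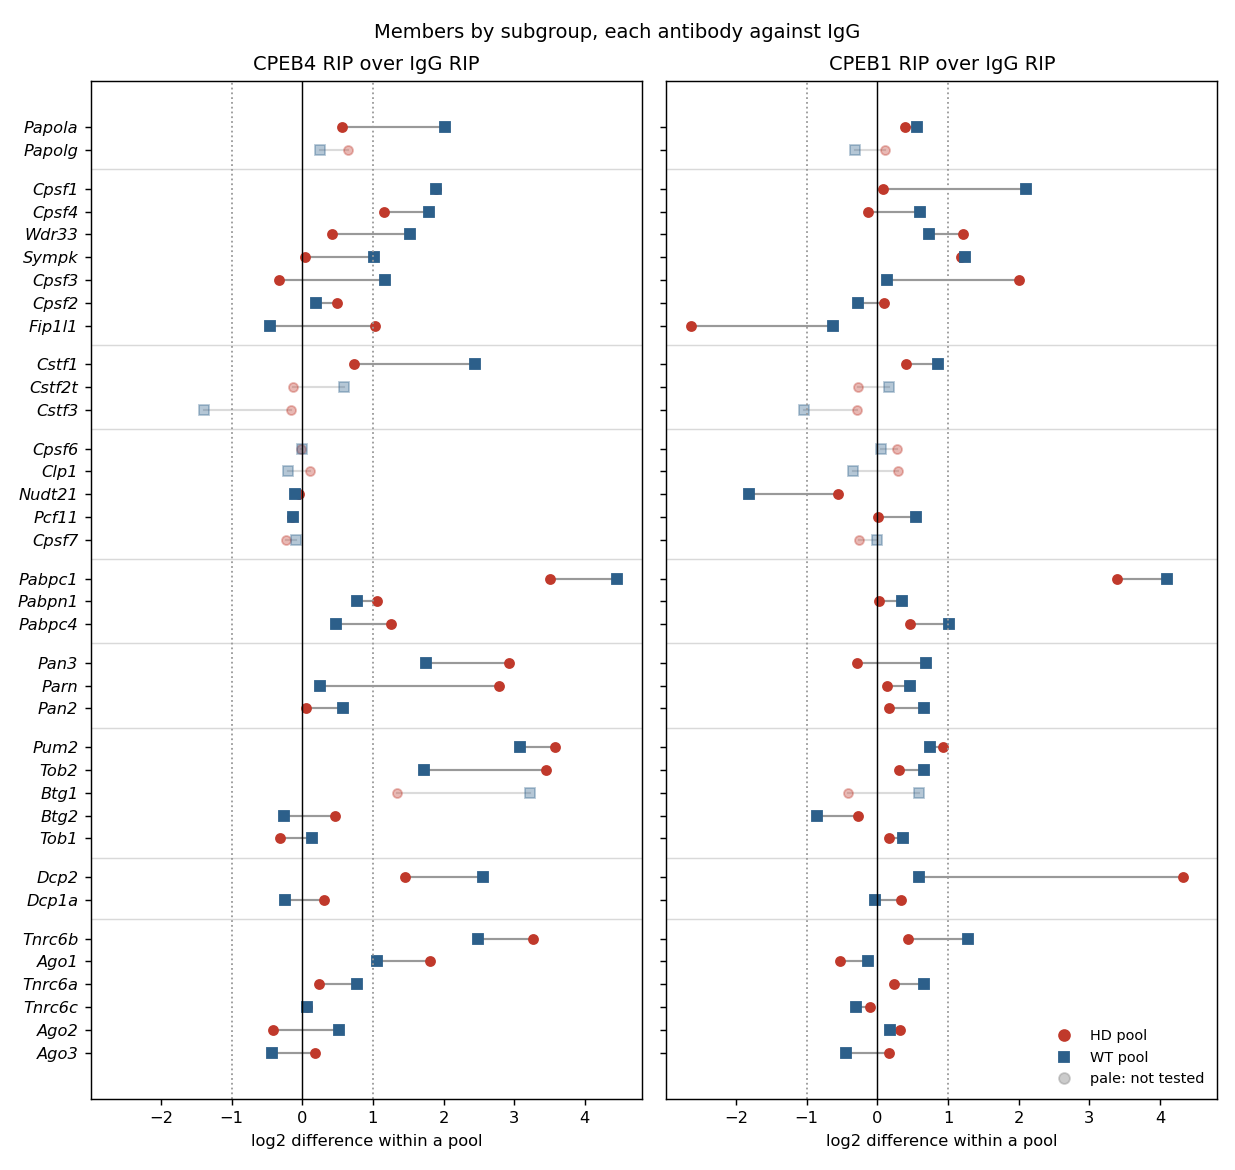
Log2 difference of CPEB4 RIP over IgG RIP (left) and of CPEB1 RIP over IgG RIP (right) for each of the 36 measured members, HD pool as red circles and WT pool as blue squares, grouped from top to bottom as poly(A) polymerases, CPSF, CstF, cleavage factors I and II, poly(A) binding, deadenylases, deadenylation adaptors, decapping and miRNA silencing. Dotted lines mark 2-fold, and pale symbols are the 7 members below the filter. With CPEB4 the pools lie beyond 2-fold together in 9 tested members, with CPEB1 in Pabpc1 and Sympk.

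Among the poly(A) binding proteins, Pabpc1 had the largest difference of all members. It stood at 8.17 in HD and 9.29 in WT with CPEB4, at 8.05 and 8.93 with CPEB1, at 4.66 and 4.83 with IgG, and at 5.20 and 5.62 in the input. All 4 antibody arrays thus lay well above the 4 arrays of IgG and input. CPEB4 was 3.98 ± 0.33 (SE) log2 units above IgG, a 15.8-fold difference (limma adjusted p = 0.0259). CPEB1 was 3.75 ± 0.33 above IgG, with an unadjusted p of 6.23e-05 by limma but an adjusted p = 0.121, which did not pass. The 2 antibodies differed by 0.24 in Pabpc1 (95% interval from -0.59 to 1.07, limma adjusted p = 0.683), and the sign turned after quantile normalization (-0.26) and with the mean of its probe sets (-0.03). The second Pabpc1 probe set stayed between 2.91 and 3.76 on all 8 arrays and showed no such difference.

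Pabpc4, a cytoplasmic relative of Pabpc1, was at 8.77 in HD and 8.34 in WT with CPEB4, against 7.51 and 7.86 with IgG (0.87, adjusted p by limma = 0.241). Its second probe set was 1.60 and 1.25 above IgG in the HD and WT pools. Pabpn1, the nuclear protein that controls tail length during synthesis, was high in every precipitate, at 10.83 and 10.59 with CPEB4, 9.79 and 10.17 with CPEB1, and 9.77 and 9.82 with IgG. In the input it was 8.50 in HD and 6.21 in WT. The difference of CPEB4 from IgG was 0.91 for Pabpn1, while IgG itself was 2.44 ± 0.68 above the input. On its second probe set the HD pool had 7.53 with CPEB4, 7.28 with CPEB1 and 7.88 with IgG, against 7.82 in the input, and the WT pool 8.06, 8.81 and 7.99, against 5.15.

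Of the deadenylation adaptors, which bring deadenylases to an mRNA, Pum2 stood apart. Its values were 9.89 in HD and 10.41 in WT with CPEB4, 7.25 and 8.07 with CPEB1, 6.32 and 7.32 with IgG, and 7.06 and 7.31 in the input. CPEB4 was higher than all other fractions in both pools, and 3.33 ± 0.29 above IgG (10.03-fold, adjusted p by limma = 0.0263). CPEB1 was 0.83 ± 0.29 above IgG (adjusted p = 0.596). The other 2 Pum2 probe sets were 2.82 and 4.16, and 3.83 and 3.38, above IgG with CPEB4 in HD and WT. All 3 Pum2 probe sets therefore lay beyond 2-fold in both pools.

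Tob2, of the antiproliferative BTG/TOB family whose members tether the deadenylase to mRNA-binding proteins, was at 10.16 in HD and 10.09 in WT with CPEB4, against 6.71 and 8.36 with IgG. CPEB1 gave 7.02 and 9.02. The CPEB4 difference of 2.59 ± 0.76 did not pass (limma adjusted p = 0.149), and the input had 10.19 and 9.35. On this probe set the CPEB4 and input arrays were all above the IgG and CPEB1 arrays. Of the other 4 Tob2 probe sets, 2 were also beyond 2-fold in both pools, at 2.79 in HD and 3.59 in WT and at 1.45 and 1.78. Unlike the first, both lay above the input with CPEB4, by 2.86 and 3.37 and by 1.01 and 1.77, and on the set at 1.45 and 1.78 CPEB1 was 1.18 and 1.08 above IgG. With the mean of all 5 probe sets the difference was 1.82 and passed (adjusted p = 0.0351 by limma).

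Btg1 fell below the filter. Its values were 5.01 in HD and 6.60 in WT with CPEB4, against 3.67 and 3.38 with IgG. On the 4 arrays of CPEB1 and input it had 3.26 to 3.96. This probe set is the brightest only through its CPEB4 arrays, so its difference of 2.28 is given with no test. The other Btg1 probe set was at -0.49 in HD and -0.38 in WT relative to IgG. On the probe sets used the remaining adaptors Btg2 (0.10) and Tob1 (-0.09) showed small differences of CPEB4 over IgG, with signs that differed between the pools. The other Btg2 probe set was at -0.64 in HD and -0.54 in WT.

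The deadenylases outside CCR4-NOT split between their members. Pan3, the adaptor subunit that brings the Pan2 nuclease to the tail, was at 6.72 in HD and 5.20 in WT with CPEB4. IgG gave 3.79 and 3.45, and the CPEB1 and input arrays lay between 3.50 and 4.14. Every array without CPEB4 was below 4.23, so this probe set was chosen and passed the filter only through the CPEB4 arrays, and its difference of 2.34 is no support. A Pan3 probe set of nearly equal mean was at -0.02 in HD and -0.19 in WT for CPEB4 over IgG. Pan2, the catalytic subunit, differed by 0.32. Parn, a separate poly(A)-specific ribonuclease, was at 7.88 in HD and 5.30 in WT with CPEB4, against 5.10 and 5.04 with IgG, 5.24 and 5.51 with CPEB1 and 6.57 and 5.49 in the input, so its difference came from the HD pool. That probe set carries the suffix x, which marks probes that can match other transcripts. The other Parn probe set gave 4.11 and 4.48 with CPEB4, against 4.88 and 4.14 with IgG.

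**Figure D2:**
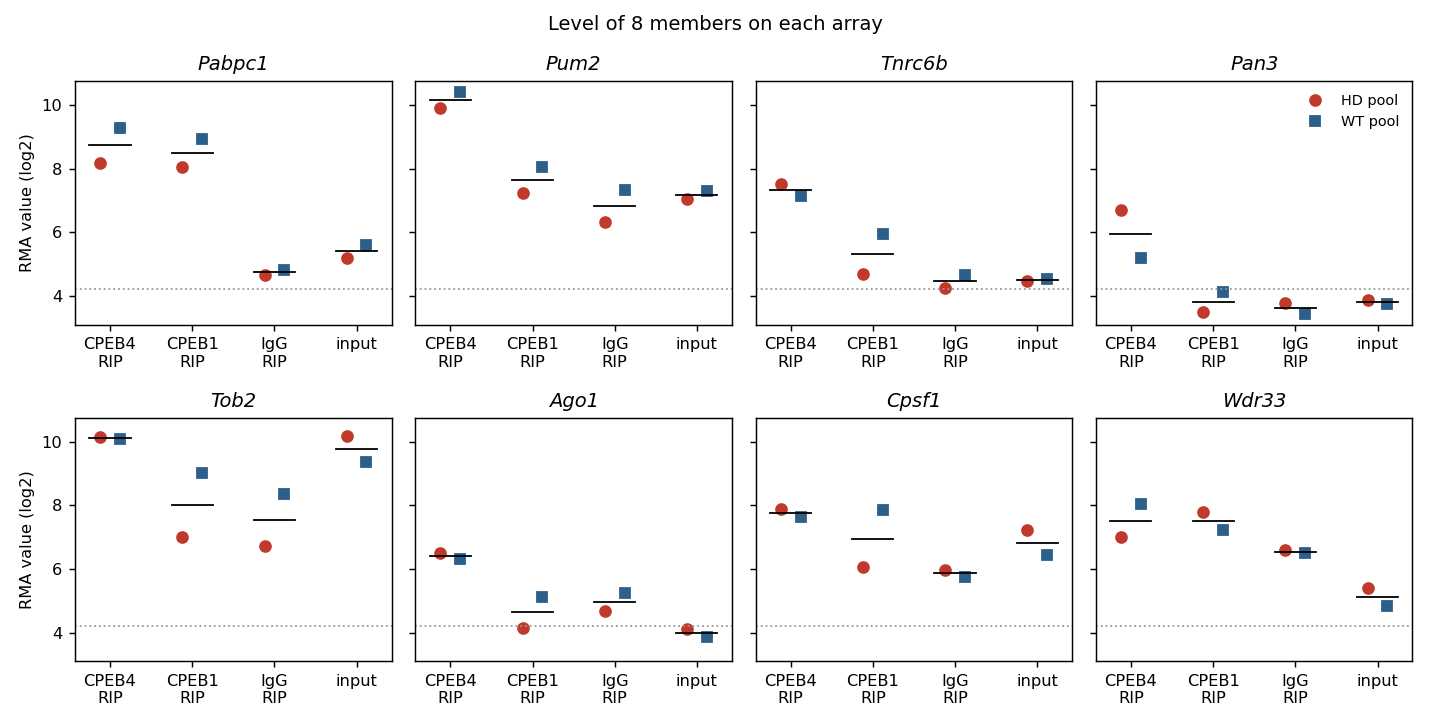
RMA value (log2) of 8 members in each fraction, the HD pool as red circles, the WT pool as blue squares and their mean as a line, with the filter value of 4.23 dotted. Levels can be compared between fractions of a gene, not between genes. Pabpc1 is high with both antibodies, and Pum2, Tnrc6b and Ago1 stand out with CPEB4. The Pan3 probe set shown was chosen and passed the filter only through its CPEB4 arrays, so its height there is no support. Tob2 is high in the input as well as with CPEB4 on the probe set shown, and Wdr33 is lowest in the input.

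Of the miRNA silencing genes Tnrc6b and Ago1 had the largest differences on the probe sets used. Tnrc6b was at 7.53 in HD and 7.15 in WT with CPEB4, 4.70 and 5.94 with CPEB1, 4.27 and 4.67 with IgG, and 4.46 and 4.55 in the input. Both CPEB4 arrays lay above all others, and the difference from IgG was 2.87 ± 0.43, or 7.33-fold (limma adjusted p = 0.0447). The second Tnrc6b probe set gave 0.94 in HD and 0.79 in WT. Ago1, an Argonaute that carries the small RNA, was at 6.50 in HD and 6.32 in WT with CPEB4, against 4.69 and 5.26 with IgG, 4.17 and 5.13 with CPEB1 and 4.12 and 3.88 in the input. This difference of 1.43 ± 0.39 did not pass (limma adjusted p = 0.132). On the probe sets used Tnrc6c differed by 0.07, Ago2 by 0.06 (-0.41 in HD and 0.52 in WT) and Ago3 by -0.12. Other probe sets of Ago2 ran up to 1.66 in HD, with 0.012 in WT, and those of Ago3 up to 0.92 in HD and 1.02 in WT and down to -0.66 and -0.70. Differences between paralogs were not tested.

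Tnrc6a gave different answers by probe set. The one with the highest mean, used for the gene, differed by 0.24 in HD and 0.78 in WT. Of the other 8, 1 was at 6.66 and 6.16 with CPEB4, against 3.63 and 3.49 with IgG, and another was lower with CPEB4 than with IgG by -1.25 and -1.29. The value of 0.51 for Tnrc6a is therefore that of 1 probe set and not of the gene. Over all members, 17 of 91 probe sets lay at least 2-fold above IgG in both pools with CPEB4 and 1 lay below, that of Tnrc6a, where 7.94% of all 45101 probe sets lay above. With CPEB1 3 of the 91 lay above, against 2.06%. The 91 each name 1 gene, whereas the 45101 include 15652 probe sets with no gene symbol and 551 with several. These shares are therefore not of like sets, and the share of all probe sets lying below was not counted. The 17 probe sets above IgG with CPEB4 belonged to 13 genes, and only Pum2 and Tob2 had more than 1.

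**Figure D3:**
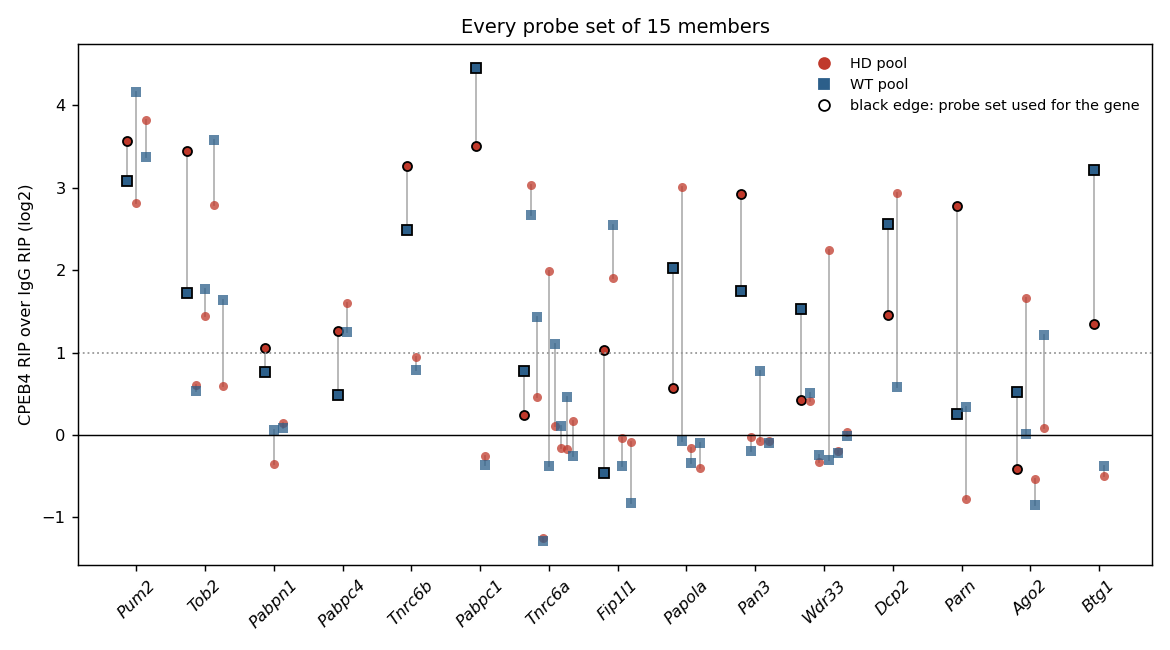
CPEB4 RIP over IgG RIP (log2) for every probe set of 15 members, ordered within a gene by mean level, HD pool as red circles and WT pool as blue squares, with a black edge on the probe set used for the gene. All 3 Pum2 probe sets lie above 2-fold (dotted), whereas Pabpc1, Tnrc6b, Pan3 and Btg1 each have 1 such probe set.

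In decapping, Dcp2, the enzyme that removes the cap, was uneven between the pools. With CPEB4 it was at 5.82 in HD and 7.22 in WT, with CPEB1 at 8.69 and 5.24, with IgG at 4.36 and 4.65, and in the input at 6.58 and 4.17. CPEB4 was 2.01 ± 1.23 above IgG and CPEB1 2.46 ± 1.23, neither past the test (adjusted p = 0.345 and 0.785 by limma). Its second probe set had 7.60 and 5.42 with CPEB4, 4.50 and 4.50 with CPEB1, and 4.66 and 4.84 with IgG. Dcp1a, its activator, stayed between 4.36 and 4.86 on all 8 arrays on the probe set used. Its second probe set had 4.85 in HD and 3.49 in WT with CPEB4, against 3.74 and 3.83 with IgG.

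Of the nuclear factors, the CPSF subunits had a median of 0.53 for CPEB4 over IgG over 7 genes, 0 of them called. Cpsf1, the large scaffold subunit, was at 7.88 in HD and 7.64 in WT with CPEB4, against 5.98 and 5.75 with IgG, a nearly equal difference in both pools (1.89 ± 0.65, limma adjusted p = 0.184). Its CPEB1 values, 6.06 in HD and 7.85 in WT, were apart, and its input values were 7.24 and 6.43. Cpsf4, a zinc finger subunit, had 7.85 and 7.83 with CPEB4, against 6.70 and 6.03 with IgG, and came nearest to the threshold among the CPSF genes (1.47 ± 0.32, adjusted p = 0.0894 by limma). Sympk, the scaffold that joins CPSF to other factors, was at 8.32 and 8.60 with CPEB1, against 7.13 and 7.36 with IgG (1.21 ± 0.34, adjusted p = 0.456). It was 1 of the 2 members beyond 2-fold in both pools with CPEB1. On the probe set used Wdr33 was higher in all 3 precipitates than in the input, with 7.02 and 8.03 with CPEB4, 7.80 and 7.23 with CPEB1 and 6.59 and 6.50 with IgG, against 5.39 and 4.83 in the input. The next Wdr33 probe set showed no such order, with 6.21 and 6.19 with CPEB4, 5.87 and 6.85 with CPEB1 and 5.80 and 5.67 with IgG, against 6.44 and 6.05 in the input.

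Cpsf3, the endonuclease that cuts the transcript, had 4.41 in HD and 6.25 in WT with CPEB4, against 4.74 and 5.07 with IgG, 6.74 and 5.21 with CPEB1 and 4.93 and 5.35 in the input, so the pools had opposite signs. Fip1l1, which holds the poly(A) polymerase on CPSF, was at 9.47 and 9.27 with CPEB4, against 8.44 and 9.73 with IgG, also with opposite signs. A second Fip1l1 probe set was 1.90 and 2.55 above IgG.

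Papola, the main nuclear poly(A) polymerase, was at 6.03 in HD and 7.37 in WT with CPEB4, against 5.46 and 5.34 with IgG, 5.86 and 5.90 with CPEB1 and 5.69 and 5.99 in the input (1.30 ± 0.42, limma adjusted p = 0.17). A second Papola probe set turned the pools round, with differences of 3.01 in HD and -0.08 in WT. Cstf1 had 5.64 and 7.41 with CPEB4, against 4.91 and 4.96 with IgG, 5.33 and 5.82 with CPEB1 and 6.15 and 6.29 in the input (1.59 ± 0.48, adjusted p by limma = 0.157), and its second probe set had 4.72 and 4.88 against 5.39 and 5.21. Members of low signal gave small values: Papolg had 3.63 and 3.18 with CPEB4, against 2.98 and 2.93 with IgG, and Cpsf2 had 4.38 and 4.80, against 3.89 and 4.61. Cstf3, the CstF scaffold, had the lowest difference of all 36 members, with 4.28 in HD and 3.54 in WT with CPEB4, against 4.44 and 4.92 with IgG (-0.77).

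The cleavage factors were flat. All 5 measured genes, Nudt21, Cpsf6, Cpsf7, Pcf11 and Clp1, had differences of CPEB4 over IgG between -0.16 and -0.01, the largest in size being Cpsf7 with 2.91 in HD and 2.81 in WT, against 3.14 and 2.90 with IgG, and 2.87 to 3.32 on the other arrays. Of these only Nudt21 and Pcf11 were above the filter, so low signal limits what could be seen in the other 3.

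**Figure D4:**
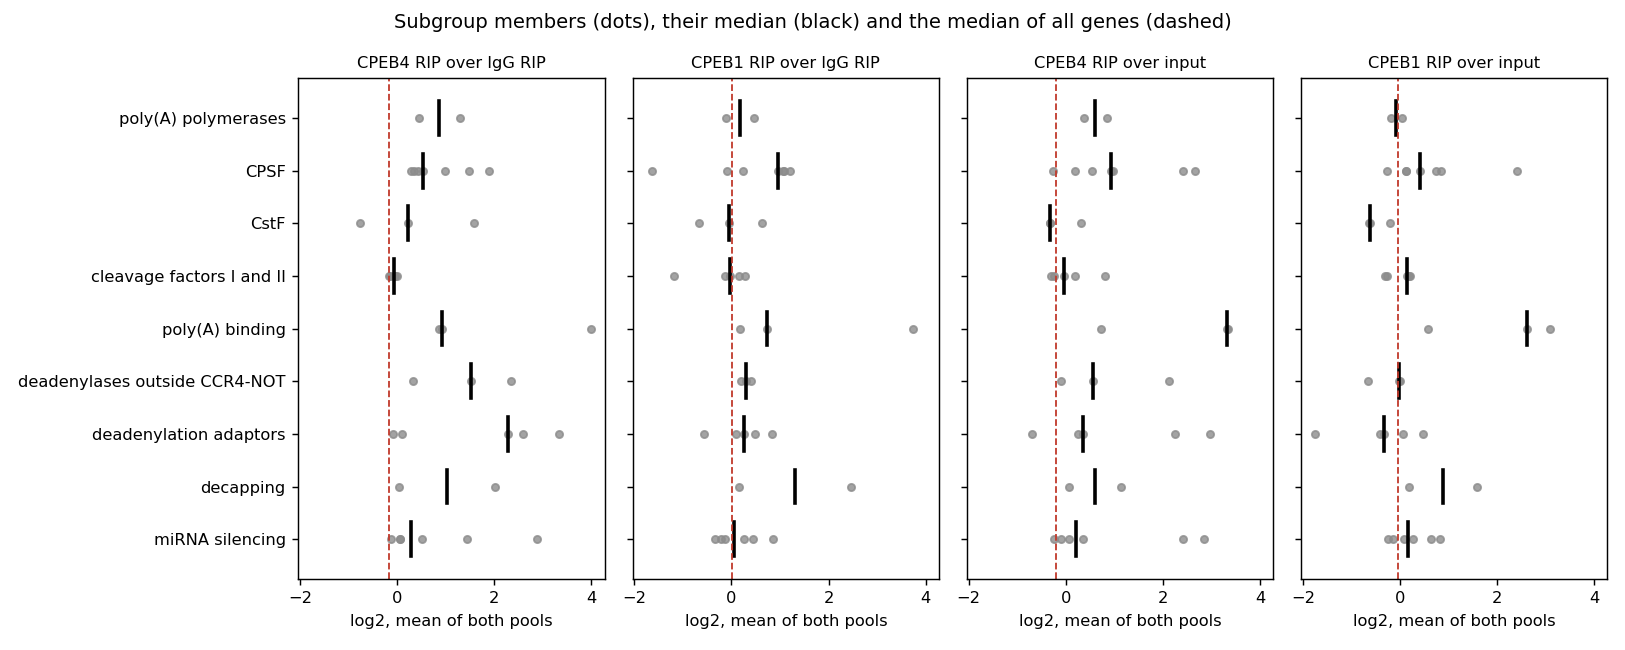
Log2 difference, mean of both pools, of each measured member (dots) by subgroup in 4 comparisons, with the subgroup median in black and the median of all 17097 genes dashed. Against IgG with CPEB4 the deadenylation adaptors have the highest median, 2.28, which is Btg1, a gene below the filter. Over tested members it is 1.35, against 1.52 for the deadenylases and 1.59 for CstF, which has 1 tested gene. The 1.52 is Parn, beyond 2-fold in the HD pool only. Pan3 lies above Parn only through its choice by the CPEB4 arrays. The cleavage factors have the lowest median over measured members, -0.07. Over input the poly(A) binding genes have the highest median with both antibodies. With CPEB1 that median, 2.62, is Pabpn1, which is also 2.44 above the input with IgG.

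The 3 calls against IgG depended on the arrays in the fit. They were lost when only the 4 arrays of CPEB4 and IgG were fitted (adjusted p = 0.0838 for each of Pabpc1, Pum2 and Tnrc6b), and without any 1 array of CPEB4, IgG or input (adjusted p = 0.0593 to 0.209 by limma over the 3 genes), while the log2 differences stayed between 2.39 and 4.30. They were lost after quantile normalization too, with 3.41 for Pabpc1, 2.56 for Pum2 and 2.40 for Tnrc6b (adjusted p = 0.0556, 0.0655 and 0.0997). With the mean of all its probe sets Pabpc1 had 1.84 and was still called (adjusted p = 0.0343), and Tnrc6b had 1.87 and was not (adjusted p = 0.0543). Tnrc6b was also lost with no filter, with the 75th percentile filter and with probe set and filter from the 6 other arrays (adjusted p = 0.0552, 0.0512 and 0.0579).

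With CPEB1 no member passed against IgG by limma, nor did any of the 11345 genes (0%). At an unadjusted p under 0.05, 3 members were higher, Pabpc1, Sympk and Pum2, against 6.37% of all genes. In the other direction 1 member was lower, Nudt21, which recognises a motif upstream of the cleavage site, against 0.996% of all genes. Nudt21 had 4.36 in HD and 3.29 in WT with CPEB1, against 4.92 and 5.11 with IgG, 4.87 and 5.02 with CPEB4 and 4.45 and 3.84 in the input (-1.19 ± 0.40, limma adjusted p = 0.584). Its second probe set, of low signal, was at -0.09 in HD and -0.81 in WT for CPEB1 over IgG. Beyond 2-fold in both pools were Pabpc1 and Sympk, against 4.48% of all genes, and in 14 members both CPEB1 arrays lay above both IgG arrays, against 24.6%. The median over 36 members was 0.24, and 0.02 over all genes. CPEB4 and CPEB1 share their IgG arrays, and a member that is low there is raised in both comparisons.

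Set directly against CPEB1, CPEB4 gave 0 of 29 members past the adjusted test by limma, where 0.141% of all genes were higher. Unadjusted, 7 members were higher with CPEB4 and 0 lower, against 9.41% of all genes higher: Pum2, Ago1, Pan3, Tnrc6b, Cpsf4, Nudt21 and Tob2. Pan3 counts only through its choice by the CPEB4 arrays: with probe set and filter from the 6 other arrays there were 6, against 7.85% of all genes, and Pan3 was at -0.53. Pum2 came nearest (2.49 ± 0.29, 95% interval from 1.75 to 3.23, adjusted p = 0.0693), and it passed under cyclic loess (2.27, adjusted p = 0.0466). Tnrc6b differed by 2.02 ± 0.43 (adjusted p = 0.154).

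Against the input, CPEB4 was higher for 2 members, Pabpc1 (3.32 ± 0.33, limma adjusted p = 0.0382) and Pum2 (2.96 ± 0.29, adjusted p = 0.0382), against 1.34% of all genes. At an unadjusted p under 0.05 there were 8, against 13.2%, among them Tnrc6b (2.84 ± 0.43, limma adjusted p = 0.0547) and Ago1 (2.41 ± 0.39, limma adjusted p = 0.0608). Pan3 was again counted only through its choice by the CPEB4 arrays. With probe set and filter from the 6 other arrays there were 7, against 11.5% of all genes, and Pan3 was at -0.39. The calls of Pabpc1 and Pum2 over input were lost without any 1 of the 8 arrays (adjusted p = 0.0542 to 0.239 by limma), and after quantile normalization (0.065 and 0.0671). Over input Pabpc1 was also lost with the mean of its probe sets (1.41, adjusted p = 0.0592) and Pum2 with trended robust eBayes (adjusted p = 0.0539). With probe set and filter from the 6 other arrays both were lost (adjusted p = 0.051). CPEB1 over input gave 0 members past the adjusted test by limma, against 0.0176% of all genes, and 3 unadjusted, Pabpc1, Wdr33 and Pabpn1, against 5.42%.

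The IgG precipitate alone was compared with the input as the background. By limma 0 members passed, against 0.0176% of all genes higher. Unadjusted, Pabpn1 (2.44 ± 0.68) and Wdr33 (1.44 ± 0.46) were higher, against 3.15% of all genes, and Tob2 (-2.23 ± 0.76) and Cstf1 (-1.28 ± 0.48) were lower, against 6.6%. For these 4 genes a comparison with input and one with IgG thus give different pictures. For Pabpc1 the difference of IgG from the input was -0.66, and for Pum2 and Tnrc6b the IgG and input values overlapped between pools.

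HD and WT were compared within each fraction on 1 array each, with no test, counting log2 differences of at least 1. In the CPEB4 precipitate 2 members were higher in HD, against 4.55% of all genes, and 7 were lower, against 11.6%. Parn (7.88 in HD, 5.30 in WT) and Pan3 (6.72 in HD, 5.20 in WT) were the higher ones, and Cpsf3 (-1.85), Cstf1 (-1.77) and Dcp2 (-1.39) the largest of the lower ones, the others being Papola, Sympk, Pabpc1 and Wdr33. The second Dcp2 probe set ran the other way here, at 7.60 in HD and 5.42 in WT, as did the second Parn probe set given above. The Pan3 probe set of nearly equal mean (4.17 in HD, 3.89 in WT) did not reach 2-fold. Neither did the second sets of Cstf1 (4.72 in HD, 4.88 in WT) and Pabpc1 (2.96 in HD, 2.91 in WT). The Pan3 probe set used was chosen through these same CPEB4 arrays. In the CPEB1 precipitate 3 members were higher, against 3.34%, and 4 lower, against 17.9%. Dcp2 was higher by 3.44, Cpsf3 by 1.53 and Nudt21 by 1.07. Fip1l1, at 5.81 in HD and 9.10 in WT, differed by -3.29, before Tob2 (-2.00), Cpsf1 (-1.79) and Tnrc6b (-1.25). Other probe sets did not show the CPEB1 differences of Dcp2 (4.50 in HD and in WT), Fip1l1 (4.32 in HD, 3.84 in WT) or Tob2 (-0.42 to 0.44 over 4 probe sets). Nor did the second Nudt21 probe set, of low signal (3.21 in HD, 3.26 in WT). With IgG 0 members were higher, against 5.32% of all genes, and 3 lower, against 10%: Tob2 (-1.65), Fip1l1 (-1.29) and Pum2 (-1.001).

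In the input 4 members were higher in HD, against 11.3% of all genes, and 0 lower, against 4.43%. Dcp2 stood at 6.58 in HD and 4.17 in WT, and its second probe set at 7.37 and 4.75. Pabpn1 was at 8.50 in HD and 6.21 in WT, with 7.82 and 5.15 on a second probe set and 3.36 and 3.97 on another of low signal. For these 2 genes 2 probe sets each gave like differences. Fip1l1 had 7.66 in HD and 5.76 in WT, but its second probe set had 3.99 and 4.45. Parn had 6.57 and 5.49, and its second probe set 4.84 and 5.51. In bulk tissue, fewer cells of a type and less RNA per cell cannot be told apart. The pools also differed in marker genes: of the 3 choroid plexus markers, Ttr was at 10.49 in the HD input and 6.60 in the WT input, while Kl (4.94 and 4.73) and Folr1 (4.31 and 4.25) were alike. The summed level of the 3 was 10.54 to 11.15 on the HD arrays and 7.15 to 9.56 on the WT arrays. Summed over 8 measured medium spiny neuron markers it was 11.18 to 12.69 on the HD arrays and 13.02 to 13.62 on the WT arrays. Such a sum follows the brightest genes, and single markers were mixed in the input. There Rgs9 was at least 2-fold higher in HD (9.76 in HD, 8.67 in WT) and Penk lower (8.30 in HD, 9.64 in WT). At 2-fold 3 of the 8 were lower in HD with CPEB4, 5 with CPEB1 and 5 with IgG, and 0 were higher. Over 3 cortical excitatory neuron markers the summed level was 5.43 to 5.83 on the HD arrays and 5.43 to 8.17 on the WT arrays. Slc17a7 alone made the gap with CPEB4 (4.86 in HD, 8.09 in WT). Their part in the HD and WT values of the members was not tested.

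**Figure D5:**
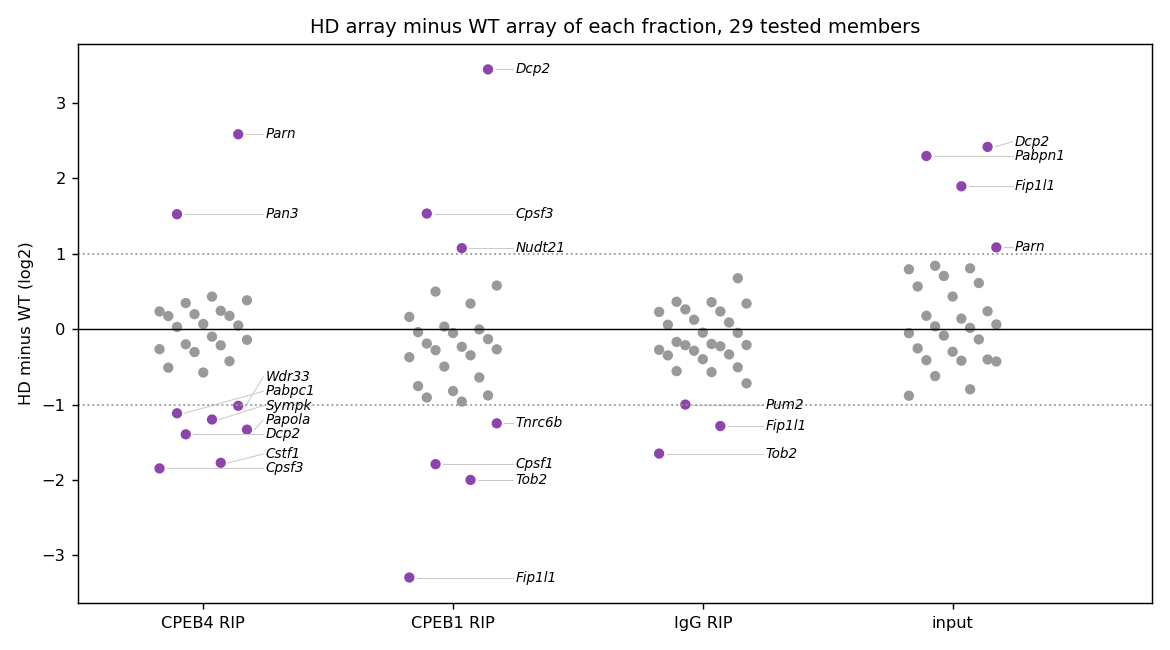
HD array minus WT array (log2) of each fraction for the 29 tested members, with members at 2-fold or more in purple and named and dotted lines at 2-fold. Each point rests on 2 arrays; Dcp2 is lower in HD with CPEB4 and higher with CPEB1 and in the input, and Fip1l1 is lower with CPEB1 and IgG and higher in the input.

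Whether enrichment differed between genotypes rests on the same single arrays. For CPEB4 over IgG, 9 of 29 members were at least 2-fold apart between the pools, where 26.4% of all genes were. Pan3 is among the 9 (1.18), on the probe set chosen through these same CPEB4 arrays. For CPEB1 over IgG it was 5 members, against 26.6% of all genes. The medians of HD minus WT enrichment over 36 members were 0.0076 for CPEB4 and -0.23 for CPEB1. Pabpc1 (-0.95), Pum2 (0.49) and Tnrc6b (0.78) stayed within 2-fold for CPEB4, and each was enriched in both pools.

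Neighbouring genes of the same pathways, 48 on a list of poly(A) polymerases, tail binding partners, decapping and miRNA factors, were counted for comparison. Of 42 measured and 34 tested, 0 passed for CPEB4 over IgG by limma, against 2.33% of all genes higher, the smallest adjusted p being 0.0623. At an unadjusted p under 0.05, 8 were higher, against 15.7% of all genes, and 1 was lower, against 817 of 11345 genes. The median of the measured neighbours was 0.07. The nearest to the threshold was Lsm14b, of RNA granules, with 6.28 in HD and 6.21 in WT with CPEB4, against 4.60 and 4.34 with IgG. Dicer1, which cuts miRNA precursors, had 8.55 and 8.46, against 5.43 and 5.84 (2.87 ± 0.59, adjusted p = 0.0803). Ddx6, a helicase that links silencing to decapping, had 10.74 and 10.68, against 6.17 and 8.21 (3.52 ± 0.95, adjusted p = 0.131). For CPEB1 over IgG 0 of the 34 passed by limma, where 0% of all genes did, and 1 was higher unadjusted, Paip2b (0.73), against 6.37% of all genes.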

How the data were processed

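RNA of 4 fractions from HD and WT striatal pools was measured on 8 Affymetrix arrays. The authors deposited log2 values per probe set, made with RMA per the submitters' processing notes, with no version named. No genome build is stated, so no coordinates are printed. Of 45101 probe sets, 28898 carried 1 gene symbol in the platform annotation, 551 several and 15652 none, and 28841 matched the RefSeq table of GRCm38.p6 by gene ID or symbol. For each gene the probe set of highest mean over the 8 arrays was used, among those naming no other gene. Tests used limma 3.58.1 in R 4.3.3 (fraction plus genotype pool, 3 residual and 2.29 prior degrees of freedom, two-sided, Benjamini-Hochberg), tested on simulated data. The number of arrays limits the precision.

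The members, lists, tests and alternatives were chosen with earlier results of these data known. Members called, the leading member of each subgroup, and up to 3 members each way at 2-fold between HD and WT are given on the arrays concerned; others named were chosen after their values were seen. Alternatives were the filter, the probe set rule, cyclic loess, median centring, quantile normalization, a fit without the genotype pool, trended robust eBayes, fits of the compared arrays alone, each array left out and other fold thresholds; probe set and filter from the 6 arrays without CPEB4 were added later.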

Additional observations from a re-analysis of the deposited data

Results flagged for a closer look

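Among the members described in full, enrichment over IgG ran in opposite directions in the pools, at least 2-fold apart, in 2 cases, both for CPEB4. Cpsf3 was at -0.33 in HD and 1.18 in WT, a difference of -1.51. Fip1l1 was at 1.03 in HD and -0.46 in WT, a difference of 1.48. With 1 array per pool and fraction neither difference was tested.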

How the results depend on the processing

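No called result changed direction. With probe set and filter taken from the 6 arrays of CPEB1, IgG and input, added after seeing the data, the members called became 2 for CPEB4 over IgG and 0 for CPEB4 over input, and the medians 0.37 for CPEB4 over IgG and 0.095 for CPEB4 over CPEB1. For CPEB4 over IgG the 3 called members became 0 after quantile normalization and with only the arrays compared, and 0 to 3 when single arrays were left out, where 3 stayed only without a CPEB1 array. The members' median of 0.48 became 1.39 under the 75th percentile filter, which leaves fewer members. That filter, at 5.33, counts the CPEB4 arrays. Tnrc6b passed it only through them, with a mean of 5.41 over all arrays and 4.76 without CPEB4. Medians with CPEB4 under this filter are therefore not read as larger enrichment, and no median of all genes is set beside them. The members' median was 0.60 under cyclic loess, 0.64 under median centring and 0.37 after quantile normalization. It lay between 0.33 and 0.64 without single arrays. For CPEB4 over input the 2 called members became 0 under the 75th percentile filter, after quantile normalization or with only the arrays compared, 1 with the mean of the probe sets, 4 with no replicate block (the genotype pool left out) and 5 under cyclic loess, and 0 without any single array. For CPEB4 over CPEB1 the 0 called became 1 under cyclic loess. The 75th percentile filter moved the medians to 0.69 for CPEB1 over IgG, 0.77 for CPEB4 over CPEB1, 0.89 for CPEB4 over input, 0.45 for CPEB1 over input and -0.40 for IgG over input. Without single arrays these medians lay between 0.087 and 0.27, 0.23 and 0.53, 0.29 and 0.64, -5.0e-05 and 0.13, and -0.23 and -0.13 in the same order. For CPEB1 over input the median of 0.099 became 0.022 with the mean of the probe sets and 0.16 under median centring. For IgG over input -0.13 became -0.064 with the mean of the probe sets, -0.15 without x and s probe sets, -0.067 under cyclic loess, -0.11 under median centring and -0.067 after quantile normalization.

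Members beyond 2-fold between HD and WT were 9 with CPEB4, and 3 at 3-fold, 4 after quantile normalization and 3 with the mean of the probe sets. With CPEB1 7 became 13 at 1.5-fold and 4 at 3-fold. With IgG 3 became 5 at 1.5-fold, 1 at 3-fold, under cyclic loess or after quantile normalization, and 0 with the mean of the probe sets. In the input 4 became 12 at 1.5-fold and 2 with the mean of the probe sets. The 2 members beyond 2-fold in both pools for CPEB1 over IgG became 5 at 1.5-fold, and 1 at 3-fold, under cyclic loess or after quantile normalization. Except where the arrays or members in a fit were reduced, the cause was not tested. Signal near the array background limits Papolg, Cstf2t, Cstf3, Cpsf6, Cpsf7, Clp1 and Btg1.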
